A study of Mus musculus with 6 samples.

Results

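Among 9 genes of the complement system, C3 was the one that passed the test between T1 and T2 cells, with a mean 215.3 times as high in T1 cells. That ratio rests on only 12 reads of C3 in the T2 libraries and was 143.5 without T2 replicate 1. The 9 genes are the components C3, C4b, Cfb, Masp1 and C1ra, the regulators Cd55, Cd59a and Serping1, and the receptor C5ar1. They were picked by symbol from the 24129 gene rows of the table, and all 9 were found. Of these, C3, Cfb and Masp1 averaged at least 10 normalized counts (reads divided by a size factor for each library) over the 6 samples, and these 3 were compared. C3 met this filter through its T1 libraries alone, with means of 840.4 in T1 and 3.90 in T2 cells. Another 3, C1ra, C4b and Serping1, had reads but fell under that filter, and the remaining 3, Cd55, Cd59a and C5ar1, were listed at 0 in every sample.

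The samples were 3 replicates each of T1 and T2 cells, labelled 4T1A and 4T1NA. Both populations derive from 4T1 cells, a BALB/c mouse mammary carcinoma line used as a model of triple negative breast cancer, which carried GFP and had been grown as a tumor in a BALB/c mouse. They emerged in the culture of sorted CD140a+ fibroblasts, which tumor cells had overgrown, and were sorted again by GFP. T1 cells had low GFP and were adherent and epithelial in shape, T2 cells had high GFP and were round and loosely attached, and both grew in the same serum-containing medium with no further treatment. The sources describe 1 isolation of each population. The study's methods speak of biological replicates for its experiments in general, but neither they nor the labels say that these RNA samples came from separate cultures, so that p-values measure the spread between these libraries. The epithelial markers checked against the labels were Epcam, at 2931 to 3502 normalized counts in T1 and 30.7 to 37.2 in T2 cells, and Cdh1, at 13730 to 15460 and 452.8 to 483.7. The libraries held 18133227 to 20839686 reads on genes, and 1 read was worth 0.928 to 1.058 normalized counts.

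Complement is a cascade of plasma and membrane proteins that tags and lyses targets. The classical pathway starts with C1q and its proteases C1r and C1s, the lectin pathway with mannose-binding lectin or ficolins and the MASP proteases, and both cleave C4 and C2. All routes meet at the cleavage of C3, which the alternative pathway, through factor B, factor D and properdin, amplifies, and the terminal components C5 to C9 can then form a pore in the membrane. Host cells protect themselves with regulators at their surface, and besides the liver, which makes most plasma complement, epithelial cells, fibroblasts and macrophages make some components locally.

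Beside the 9 members, 47 further complement genes were read from the same table, giving a list of 56 in which 28 genes had no read in any library, 17 fell under the filter and 11 were compared. At an adjusted p-value under 0.01, 1 of these 11 was higher in T1 cells (C3) and 2 were lower (Clu and Fcna), while 25.1% of all 11514 genes compared were called higher and 24.4% lower. With the further filter of a log2 fold change above 2, C3 stayed on the higher side and Fcna on the lower, against 4.17% and 4.2% of all genes compared. Among the members the counts were 1 higher and 0 lower of 3 compared under either rule. The values of the T1 and T2 libraries did not overlap in 2 of the 3 members compared and in 8 of the 11 genes of the list, and in 68.1% of all genes compared. The median log2 fold change of the 11 genes was -0.41, beside -0.005 over all genes compared.

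**Figure D1:**
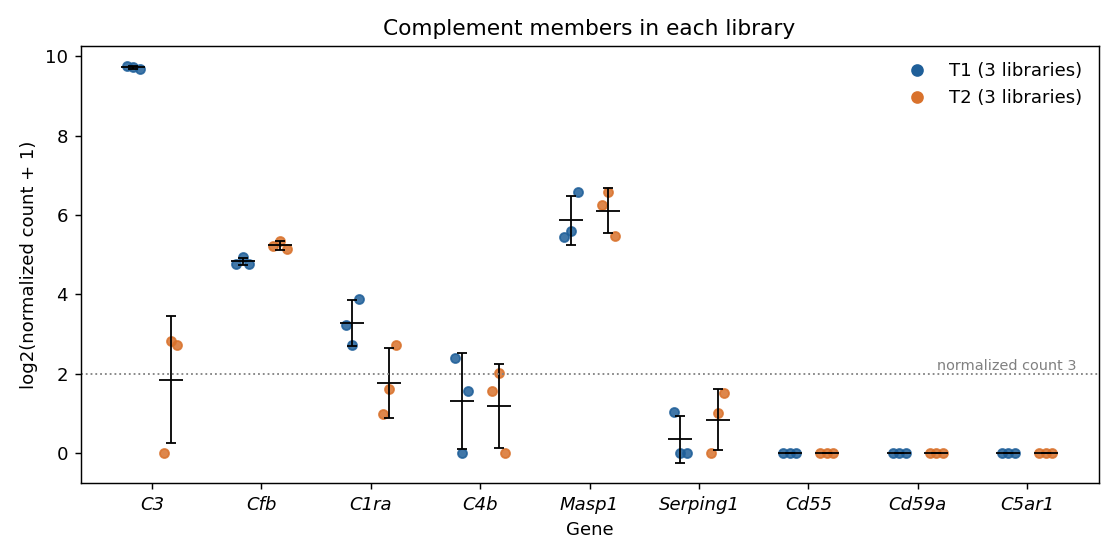
Expression of the 9 complement members in each library, on the vertical axis as log2(normalized count + 1). Points are libraries, blue for T1 and orange for T2 cells (3 each), with black bars for the mean and SD on this scale and a dotted line at a normalized count of 3. C3 stands near the top in every T1 library and near the floor in T2 libraries, Cfb and Masp1 lie at similar heights in both, and Cd55, Cd59a and C5ar1 lie at 0.

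C3 encodes the protein on which all complement pathways converge. Its position in mm10 is chromosome 17, 57203970 to 57228136, minus strand, a span in which the annotation places 1 other gene, the microRNA Mir6978. The T1 libraries had 859.2, 849.1 and 813.0 normalized counts of C3, and the T2 libraries 0, 6.14 and 5.57. All 3 T1 libraries lay far above all 3 T2 libraries, and they differed among themselves by a coefficient of variation of only 2.89%. The means were 840.4 ± 24.3 and 3.90 ± 3.39 (SD, n = 3 each), which rest on 2558 reads in T1 and 12 reads in T2 cells. By limma, T1 minus T2 was 7.87 on the log2 scale (95% interval 6.50 to 9.23, standard error 0.61) at an adjusted p of 2.17e-06. By log2 fold change C3 ranked 23 of the 480 genes that passed both filters on the T1 side. The study had also put C3 on its list of leading genes of T1 cells, selected on these samples, so that its direction is not independent evidence. The size of the difference depends on T2 replicate 1, the library without a C3 read. Without it the ratio of means was 143.5 and the log2 fold change 6.94.

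The 250 bases before the annotated start of C3 are shown because C3 was the member that changed. They come from RefSeq, build GRCm38.p6, chr17:57228137-57228386, minus strand, written 5′ to 3′ with matches to 2 motifs in capitals.

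C3 promoter: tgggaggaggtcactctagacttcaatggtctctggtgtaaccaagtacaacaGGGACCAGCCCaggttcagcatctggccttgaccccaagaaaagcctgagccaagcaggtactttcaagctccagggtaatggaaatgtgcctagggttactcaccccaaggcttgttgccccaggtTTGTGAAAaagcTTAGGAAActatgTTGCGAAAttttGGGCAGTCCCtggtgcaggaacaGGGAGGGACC

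The letters TTNNGNAA, a core of the C/EBP element, were found 3 times on either strand, between bases 70 and 38 before the start. They occur in 36.8% of the 32851 promoter windows of the same length, and 2.6% of these windows hold as many as 3. The letters GGG and CC with any 5 bases between them, which NF-kB sites contain, gave 4 matches on either strand, of which the first 2, from base 197, overlap. They occur in 45.8% of the windows, with 4 or more in 5%. The STAT letters TTCNNNGAA and the TATA box letters TATAAA were not found in this window, and 7% and 12.4% of the windows hold them. These are matches of letters and say nothing about binding in these cells.

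Macrophages and fibroblasts are known sources of C3, and their markers were read beside it. The summed level of 10 mononuclear phagocyte markers was 392.6 to 471.4 normalized counts in T1 and 200.7 to 254.9 in T2 cells. The higher sum in T1 cells came from Cd14, at 319.0 to 374.8 in T1 and 69.5 to 102.1 in T2 cells. Csf1r, under the filter, was also higher in T1 cells, at 2.12 to 9.30 normalized counts against 0 to 1.02. Mrc1 and Ptprc lay the other way. Mrc1 was lower in T1 cells, at 0.976 to 5.29 against 37.2 to 52.2 (log2 fold change -3.57, adjusted p = 6.81e-05, limma), and Ptprc had no read in T1 and 2.78 to 6.14 normalized counts in T2 cells. Cd68 had 58.2 to 87.8 in T1 and 77.9 to 117.7 in T2 cells and did not pass the test (adjusted p = 0.182, limma). Adgre1, Tyrobp and Fcgr1 had no read in any library, and Lyz2 and Laptm5 had at most 1 and 2. The sum of 8 fibroblast markers was 225.1 to 241.1 in T1 and 996.8 to 1295 in T2 cells. Most of the sum in T1 and nearly all of it in T2 cells was Pdgfra, which encodes the CD140a of the sort. Pdgfra had 190.7 to 206.3 normalized counts in T1 and 995.8 to 1295 in T2 cells. Col1a1 lay the other way, like C3, and was higher in T1 cells, at 14.8 to 27.9 normalized counts against 0 to 0.979 (log2 fold change 4.17, adjusted p = 4.94e-05, limma). Col1a2 had 4.23 to 11.7 and Dcn 0 to 3.90 in T1 cells, and neither had a read in T2 cells. Col3a1, Pdgfrb, Lum and Thy1 had no read in any library. Of 6 endothelial markers, Kdr and Emcn had no read, and the sum was at most 15.9 in a T1 and 6.50 in a T2 library. The part of such cells in the C3 difference was not tested, and in these bulk samples fewer cells of a type and less RNA per cell cannot be told apart.

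Cfb encodes factor B, the protease subunit of the C3 convertase of the alternative pathway. It lies on chromosome 17 from 34856374 to 34862518, where 85 bases separate it from C2. The T1 libraries had 26.5, 29.8 and 26.4 normalized counts and the T2 libraries 36.2, 39.9 and 34.3. Every T1 value was below every T2 value, with means of 27.5 ± 1.94 and 36.8 ± 2.85 (SD, n = 3 each). In limma, however, the log2 fold change of -0.41 (95% interval -0.94 to 0.12) did not pass the threshold (adjusted p = 0.16). A gene annotated across C2 and Cfb, Gm20547, has no row in the table, and 73.0% of the 50-base words of Cfb transcripts also occur in transcripts of another gene. The sequenced reads were paired and longer than these words. The share of shared words therefore need not equal the share of reads that could not be assigned, here or for the genes below.

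The other genes of the alternative pathway also stayed below the threshold or the filter. Cfp, which encodes properdin, the protein that stabilises the convertase, had 36.0, 34.4 and 44.9 normalized counts in T1 and 58.8, 72.7 and 67.7 in T2 cells. All its T2 values were above its T1 values, but at a log2 fold change of -0.78 its adjusted p in limma was 0.0105, just over the threshold. It passed with a pseudocount of 5, without the variance trend and without T1 replicate 3. Cfd, which encodes factor D, the protease that cleaves factor B, had 2 reads in T1 and 0 in T2 cells.

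C1ra encodes the protease C1r of the classical pathway, on chromosome 6 from 124512405 to 124523443. It had 8.47, 5.58 and 13.7 normalized counts in T1 and 0.979, 2.05 and 5.57 in T2 cells, which are 28 and 9 reads in all. The T1 values were the higher ones, although the lowest T1 and the highest T2 value were nearly equal. An exact two-sided permutation test gave p = 0.1, the smallest that 3 against 3 samples allow. Of the 50-base words of its transcripts, 50.8% also occur in another gene. Its tandem partner C1rb was listed at 0 in every library, so that their sum equals C1ra. C1s1, whose product is the second protease of the C1 complex, had 9 reads in T1 and 1 in T2 cells.

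C4b encodes the component C4, which the classical and lectin pathways cleave to build a C3 convertase. It lies in the MHC region on chromosome 17 from 34728380 to 34743882, near its partner C4a. C4b had 4.23, 0 and 1.95 normalized counts in T1 and 1.96, 3.07 and 0 in T2 cells, so both groups included a library without a read and overlapped (exact two-sided permutation test, p = 1.0). C4a was listed somewhat higher, with 9.52, 13.02 and 3.90 in T1 and 9.79, 13.3 and 11.1 in T2 cells (adjusted p = 0.399, limma). Of the 50-base words of C4b, 34.6% also occur in another gene. Counting could have split or dropped read pairs that lie wholly in shared stretches, and how many did was not measured. Summed to 1 gene they had a log2 fold change of -0.31 (standard error 0.41), not past the threshold (adjusted p = 0.53, limma). The recognition subunits C1qa, C1qb and C1qc, and C2, had no read in any library.

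**Figure D2:**
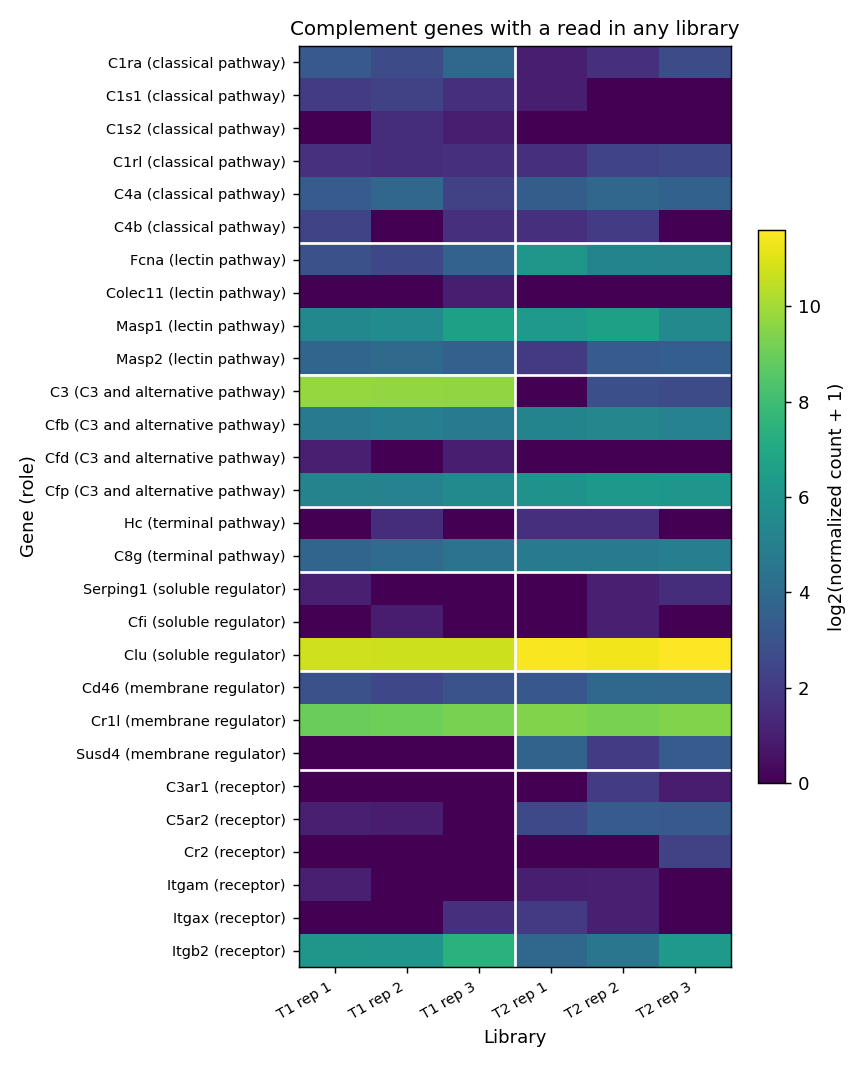
Levels of the 28 complement genes with a read in any library, as log2(normalized count + 1) in the colour of each cell. Rows are genes grouped by role, columns are the 3 T1 and 3 T2 libraries. The bright rows are Clu and Cr1l in all libraries and C3 in T1 libraries, while most classical and receptor genes are dark throughout.

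Masp1 encodes proteases that associate with the recognition molecules of the lectin pathway. It spans 71399 bases of chromosome 16, from 23449417 to 23520815, and overlaps Rtp4 on the other strand. Its normalized counts were 42.3, 47.4 and 94.7 in T1 and 75.4, 95.2 and 43.6 in T2 cells. The groups overlapped almost entirely, since T1 replicate 3 resembled the high T2 libraries and T2 replicate 3 the low T1 libraries. The means were 61.5 ± 28.9 and 71.4 ± 26.0 (SD, n = 3 each), and the log2 fold change of -0.24 (95% interval -1.03 to 0.56) did not pass (adjusted p = 0.585, limma).

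Fcna, which encodes ficolin A, a recognition molecule that works with these proteases, was lower in T1 cells. It had 6.35, 4.65 and 11.7 normalized counts in T1 and 68.5, 36.9 and 35.3 in T2 cells. The groups did not overlap, with T1 minus T2 at -2.50 on the log2 scale (limma, adjusted p = 0.000334, standard error 0.40). Fcna met the filter on the mean through its T2 libraries, with means of 7.57 in T1 and 46.9 in T2 cells. An antisense gene, Fcnaos, is annotated over it and is not listed by that name. The library kit does not mark strand in its standard form, so reads of Fcnaos could have been counted as Fcna, which was not tested. Masp2, the protease gene that overlaps Tardbp, had 10.7 to 14.9 in T1 and 2.94 to 10.2 in T2 cells (adjusted p = 0.143, limma). The mannose-binding lectin genes Mbl1 and Mbl2 and the genes Fcnb and Colec10 had no read.

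Of the 7 terminal genes, 5 had no read in any library, namely C6, C7, C8a, C8b and C9. Hc, the mouse gene of C5, had 2 reads in T1 and 4 in T2 cells. C8g, which encodes the small subunit of C8, was the terminal gene with enough reads, at 12.7 to 20.5 normalized counts in T1 and 25.5 to 29.7 in T2 cells (log2 fold change -0.74, adjusted p = 0.047, limma). It overlaps Fbxw5 on the opposite strand. The library kit named in the study's methods does not mark strand in its standard form, and the study used a modified protocol. Without strand, reads from a stretch shared by both genes cannot be assigned, and how much they share was not measured. The same holds for Masp1 with Rtp4 and for Masp2 with Tardbp.

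Serping1 encodes C1 inhibitor, which inactivates the proteases of the classical and lectin pathways. It lies on chromosome 2 from 84765387 to 84775444. The T1 libraries held 1, 0 and 0 reads and the T2 libraries 0, 1 and 2, values so low that no difference could be detected at this depth (exact two-sided permutation test, p = 0.7). Of 10 genes of soluble regulators, 7 had no read in any library. The 1 gene of this role that was compared was Clu, which encodes clusterin, a secreted chaperone that binds the terminal complex. Clu had 1710, 1684 and 1675 normalized counts in T1 and 2900, 2642 and 3101 in T2 cells. It was lower in every T1 library, at -0.77 on the log2 scale (limma, adjusted p = 1.82e-05, standard error 0.08), with a mean 1.71 times as high in T2 cells.

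Cd55 and Cd59a encode membrane regulators, decay accelerating factor and the protein that blocks assembly of the pore. Cd55 lies on chromosome 1 from 130439027 to 130462744 and Cd59a on chromosome 2 from 104095801 to 104115354. Both were listed at 0 in all 6 libraries, as were their tandem partners Cd55b and Cd59b. Sums of the partners are therefore 0 as well and cannot show reads that counting dropped from both. A count of 0 allows up to 3 reads among the 58716009 of the T1 libraries or the 58614054 of the T2 libraries, for counting error only. Of their 50-base words, 9.1% in Cd55 and 3.9% in Cd59a also occur in another gene. A listing at 0 in this table need not mean that a transcript is missing. Gapdh, a glycolytic gene that cells use throughout, had at most 1 read per library and was singled out after its values were seen.

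The 1 membrane regulator compared was Cr1l, which encodes Crry, a rodent protein that limits C3 and C4 deposition on the cell. It had 506.8, 521.7 and 606.1 normalized counts in T1 and 672.7, 622.5 and 681.1 in T2 cells. The values did not overlap, but the log2 fold change was only -0.28 (95% interval -0.52 to -0.04), and the adjusted p of 0.0441 (limma) is not under 0.01. Cd46, a cofactor for the cleavage of C3 and C4 fragments, had 18 reads in T1 and 36 in T2 cells. Susd4, singled out after its values were seen, had 0 reads in the T1 libraries and 25 in the T2 libraries, too few to enter the comparison.

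C5ar1 encodes the receptor for the C5 fragment that attracts leukocytes. It lies on chromosome 7 from 16246743 to 16259540 and was listed at 0 in all 6 libraries, although none of its 50-base words occurs in another gene. Its neighbour C5ar2, singled out after its values were seen, had 2 reads in T1 and 23 in T2 cells. C3ar1, the receptor for the small fragment of C3, had 0 and 4 reads. Of 8 receptor genes, the 1 compared was Itgb2, the beta chain shared by leukocyte integrins that bind C3 fragments, with 68.8, 64.2 and 166.9 normalized counts in T1 and 13.7, 22.5 and 77.0 in T2 cells. T2 replicate 3 lay above the lower T1 libraries, and the log2 fold change of 1.61 did not pass (adjusted p = 0.0295, limma). Without that library it was 2.30 and passed (adjusted p = 0.00247, limma). Its partner chains Itgam and Itgax had at most 2 and 3 reads in a library.

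**Figure D3:**
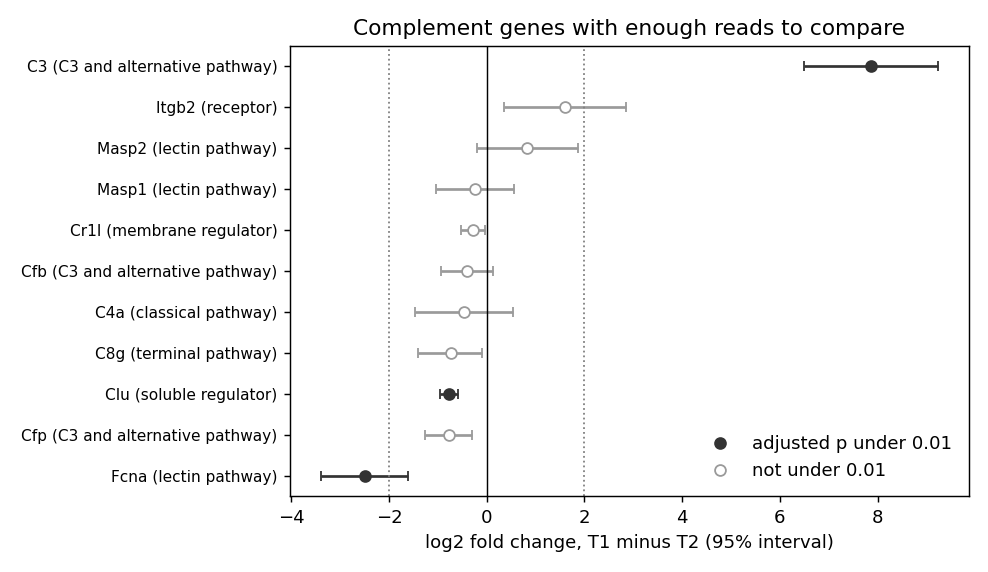
Log2 fold changes of T1 minus T2 cells for the 11 complement genes compared, with 95% intervals from limma. Filled points reached an adjusted p-value under 0.01, open points did not, and dotted lines mark a log2 fold change of 2 in either direction. C3 at 7.87 stands alone on the right, Fcna at -2.50 lies on the left, and Clu at -0.77 has a narrow interval that does not reach 0.

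To compare genes with each other, normalized counts were divided by exonic length in kilobases. In T1 cells Clu came first, at 487.3 to 497.5 per kilobase, followed by C3 at 158.1 to 167.1 and Cr1l at 49.0 to 58.6, and these ranges did not overlap. Itgb2, at 21.0 to 54.7, overlapped Cr1l, and Cfp, at 19.8 to 25.9, overlapped Itgb2. In T2 cells the order was Clu at 768.6 to 902.3, Cr1l at 60.2 to 65.8 and Cfp at 33.8 to 41.9, with Fcna at 25.7 to 49.9 overlapping Cfp. C3 fell to at most 1.19 per kilobase there. Among 15130 genes with a read and a known length, C3 stood at percentile 65.6 of this level in T1 and 18.9 in T2 cells, Cfb at 32.1 and 33.3, and Masp1 at 29.5 and 29.9.

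The complement list as a whole took 0.017% to 0.0182% of the normalized counts of a T1 library and 0.019% to 0.022% of a T2 library. C3 held 24.9% ± 1.51 of the list's counts in T1 and 0.101% ± 0.0893 in T2 cells (SD, n = 3 each). Clu held 50.1% ± 2.02 in T1 and 74.0% ± 1.11 in T2 cells. The share of Cr1l was 16.1% ± 1.05 and 16.9% ± 0.439, ranges that overlap. These shares count long genes more heavily than short ones, and they sum to 100% in each library, so that the share of 1 gene bears on those of the others.

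**Figure D4:**
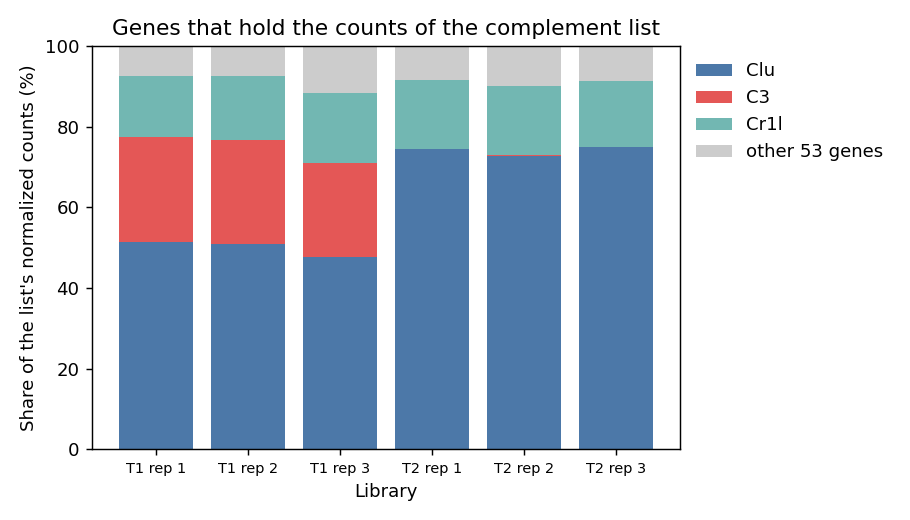
Share of the complement list's normalized counts held by Clu, C3, Cr1l and the other 53 genes, in percent, as stacked bars for the 3 T1 and 3 T2 libraries. C3 takes 23.2% to 25.9% of each T1 bar and at most 0.169% of a T2 bar, and Clu takes most of the T2 bars.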

How the data were processed

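RNA sequencing values of 3 T1 and 3 T2 samples were used, with groups taken from the sample titles. As the authors describe it, Trimmomatic was used for trimming, TopHat2 for alignment to mm10, HTSeq for gene counts and DESeq2 for normalization. Tool versions, the annotation and the strand setting are not given in the sources used here. The deposited signal is a normalized read count per gene, and whole reads could be recovered from 100% of the values within 0.01 reads. No value column was left out (0 unused).

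Genes averaging 10 or more normalized counts were compared with limma 3.58.1 under R 4.3.3, with a variance trend and Benjamini-Hochberg adjustment. Values entered as log2(normalized count + 1), and the added 1 understates the change of low genes. Calls used an adjusted p-value under 0.01, alone or with a log2 fold change above 2 as in the study. edgeR 4.0.16 and DESeq2 1.42.0 were run on the recovered reads. Other alternatives changed the pseudocount, the filter, the scaling, the variance trend, the replicate block, the summing of partners and the libraries included. The scripts were tested on simulated data, in which limma, edgeR and DESeq2 each recovered all 200 changed genes. Those genes were simulated at levels well above the filter, so the test did not cover values near the floor. The members and lists were chosen with earlier results of these data known. The rule named every member, further list genes past the threshold and the tandem partners, and other list genes were named after their values were seen. Coordinates and exonic lengths came from GENCODE M21, of the same build. Words of 50 bases were compared over all its transcripts. Intervals come from the limma fit and draw on the spread between libraries, whereas floors (3 reads) cover counting error only. Figures were drawn with matplotlib 3.10.9.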

Additional observations from a re-analysis of the deposited data

How the results depend on the processing

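In each of 16 alternatives C3 was past both filters as higher in T1 cells, with a log2 fold change from 6.66 (pseudocount 5) to 8.36 (without T2 replicate 2). Fcna and Clu also kept their calls wherever they were compared. The number of list genes lower in T1 cells past both filters went from 1 to 3 without a filter on low values, where C5ar2 and Susd4 joined Fcna, and to 0 with a mean of at least 50, since Fcna was then not compared. At an adjusted p-value under 0.01 alone it went from 2 to 4 without the filter, to 1 with a mean of at least 50, and to 4 without the variance trend, where Cfp and C8g joined. Cfp also passed with a pseudocount of 5 and without T1 replicate 3. Leaving out 1 library at a time, the number of list genes higher in T1 cells was 1 to 2 under either rule, with Itgb2 joining C3 without T2 replicate 3. The log2 fold change of Masp1 then ran from -0.59 to 0.00, where its sign turned (without T2 replicate 2). With the replicate block, 2 list genes were higher at an adjusted p-value under 0.01, C3 and Itgb2. The numbers are not known to pair samples: deviations of same-numbered samples correlated at 0.057, 0.172 and 0.104, and 5 of 6 samples correlated best with their own number. Depth limits C1ra, C4b and Serping1, with 37, 11 and 4 reads over all libraries.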

Other observations

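Of 20 genes that cells use throughout, 19 had at least 152 reads in each library, whereas Gapdh had 0 or 1. Of its 50-base words, 25.1% occur in another gene. Why it is near 0 was not tested.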
